A study of Mus musculus with 4 samples.

Results

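The mitosis and spindle genes analysed here are 39 named genes that encode the kinases, checkpoint proteins, motors and scaffolds that carry a cell through division. A gene was measured where a probe set of the array carried its symbol and no other, and the probe set with the greatest mean across the 4 arrays gave its value. By this rule 38 of the 39 genes were measured, of 18194 genes in all. In the platform annotation used here no probe set carried the symbol of *Ccnb1*, which encodes cyclin B1, and it was not analysed here.

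In a dividing cell the transcripts of these genes build up late in the cycle. Cdk1 bound to A-type and B-type cyclins drives entry into mitosis, the spindle checkpoint holds anaphase back until every kinetochore is attached, and the central spindle and contractile ring then divide the cell. In resting cells a repressor complex keeps many of these genes low through their promoters, so that together they are widely used as a readout of how many cells in a culture are cycling.

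RNA levels were read on Affymetrix arrays in mammary fibroblasts of 16-week-old female FVB/N mice, grown in medium with serum and harvested at the second passage, with 1 array for each genotype. The genotypes were *Ets2db/loxP* (normal fibroblasts with *Ets2*), *FspCre;Ets2db/loxP* (normal *Ets2* null fibroblasts), *ErbB2;Ets2db/loxP* (tumor fibroblasts with *Ets2*) and *ErbB2;Fsp-cre;Ets2db/loxP* (tumor *Ets2* null fibroblasts). All 4, the controls included, carried the db allele, which lacks function through loss of the DNA-binding domain, beside the loxP allele, so that fibroblasts called *Ets2* present had a single working copy. The Fsp promoter drove Cre in fibroblasts, and the *ErbB2* oncogene was expressed in the epithelium and not in the fibroblasts themselves. The comparisons ask whether loss of *Ets2* from fibroblasts, and the presence of the oncogene next to them, go with another level of the cell division genes. With 1 array a genotype there are no replicates, no error could be estimated and no test was made. A difference over 2-fold, that is, over 1 on the log2 scale, was taken as large, and counts of members in the 4 comparisons were set beside the share of all genes that met the same rule.

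The brightest *Ets2* probe set read 8.14 and 8.35 on the normal arrays with and without *Ets2*, and 8.34 and 8.31 on the tumor arrays with and without it. Whether it lies within the deleted part is not known here, so it does not check the labels. Of the fibroblast markers, *Vim* (vimentin, an intermediate filament of mesenchymal cells) read between 13.97 and 14.06 on the 4 arrays. *Col1a2* (a chain of collagen I) read between 14.29 and 14.61. Some others varied more. *Lum* (lumican) read 7.77 and 6.71 on the normal arrays with and without *Ets2*, and 9.47 and 8.45 on the tumor arrays. *Fap* read 6.83, 5.85, 7.62 and 7.79 in the same order. Of 20 markers, 15 were lower without *Ets2* in normal fibroblasts, against 50.5% of all genes, with a median of -0.35. In tumor fibroblasts 12 were lower, against 44.2%, with a median of -0.16. Array medians lay between 5.51 and 5.54. Upper quartiles ran from 7.42 on the tumor *Ets2* null array, the lowest, to 7.49 on the tumor array with *Ets2*, the highest.

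Promoter windows from RefSeq (GRCm38.p6, from 250 bases before to 50 after the start) were matched for 33 of the 39 genes in the table used here, the others being *Aurkb*, *Ccna2*, *Foxm1*, *Incenp*, *Kif20a* and *Tpx2*. For each gene the first window listed was used, so any other start of a gene was not searched. Late cell cycle promoters are known for a cell cycle homology region (CHR, TTTGAA), through which MuvB complexes act, and for CCAAT boxes, which bind NF-Y. These motifs were searched on both strands, together with a CCGGAAG word bound by ETS proteins, the family of *Ets2*, and the E2F words TTTCCCGC, TTTGGCGC, TTTGCCGC and TTTCGCGC. Of the 33 windows, that of *Ccnb1* included, 25 (75.8%) held a CHR word, against 18.1% of all 27025 gene windows of this length. The 27025 windows include genes that were not measured on the arrays. A CCAAT word was present in 26 (78.8%) against 37.9% of all windows, and both words in 22 (66.7%) against 7.12%. The ETS word was present in 8 (24.2%) against 9.12%, and an E2F word in 2 (6.06%) against 2.32%, the windows of *Cdk1* and *Ncapg*. The CHR word overlapped a CCAAT word in 1 member window. The 4 windows below are shown because all carry CHR and CCAAT words while their genes differ in the tumor comparison. *Ect2* had the lowest tumor difference and *Cdk1* a difference of -0.52 and an E2F word. By their chosen probe sets *Ccnb2* and *Cdc20* hardly differed between arrays, while another *Cdc20* probe set gave a tumor difference of -0.29. They are printed on the strand of the gene, 5' to 3', and capitals mark words of the searched motifs on either strand (ATTGG is CCAAT on the other strand).
Ect2, chr3:27153829-27154128, minus strand: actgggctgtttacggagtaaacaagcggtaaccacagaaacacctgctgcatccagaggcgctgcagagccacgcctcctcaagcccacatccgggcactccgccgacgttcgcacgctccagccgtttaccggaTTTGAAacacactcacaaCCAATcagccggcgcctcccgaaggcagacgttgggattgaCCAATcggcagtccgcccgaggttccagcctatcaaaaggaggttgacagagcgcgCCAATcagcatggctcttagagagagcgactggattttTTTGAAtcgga
Cdk1, chr10:69352863-69353162, minus strand: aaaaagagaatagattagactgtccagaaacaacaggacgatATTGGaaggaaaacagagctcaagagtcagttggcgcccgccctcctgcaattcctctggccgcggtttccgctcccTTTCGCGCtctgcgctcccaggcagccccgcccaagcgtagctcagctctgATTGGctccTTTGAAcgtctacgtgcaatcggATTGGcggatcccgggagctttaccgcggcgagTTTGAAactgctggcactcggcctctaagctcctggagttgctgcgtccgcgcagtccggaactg
Ccnb2, chr9:70421505-70421804, minus strand: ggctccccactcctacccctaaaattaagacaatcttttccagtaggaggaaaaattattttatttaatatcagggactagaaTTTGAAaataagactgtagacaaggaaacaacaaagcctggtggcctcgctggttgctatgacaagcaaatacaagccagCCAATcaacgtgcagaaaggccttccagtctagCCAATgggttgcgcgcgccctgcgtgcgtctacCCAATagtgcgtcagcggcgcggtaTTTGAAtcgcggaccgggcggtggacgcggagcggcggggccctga
Cdc20, chr4:118437294-118437593, minus strand: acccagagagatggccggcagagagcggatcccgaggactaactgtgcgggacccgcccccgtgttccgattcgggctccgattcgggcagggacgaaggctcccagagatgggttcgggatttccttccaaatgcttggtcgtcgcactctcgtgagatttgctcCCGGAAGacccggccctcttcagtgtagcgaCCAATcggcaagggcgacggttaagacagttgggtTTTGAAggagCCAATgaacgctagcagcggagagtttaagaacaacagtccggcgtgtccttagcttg
The windows of *Ect2* and *Ccnb2* held the same words in the same numbers, 2 CHR and 3 CCAAT words, and no ETS or E2F word. The window of *Cdc20* held 1 CHR word, 2 CCAAT words and 1 ETS word. A match is a description of the letters and not evidence that a factor binds there.

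**Figure D1:**
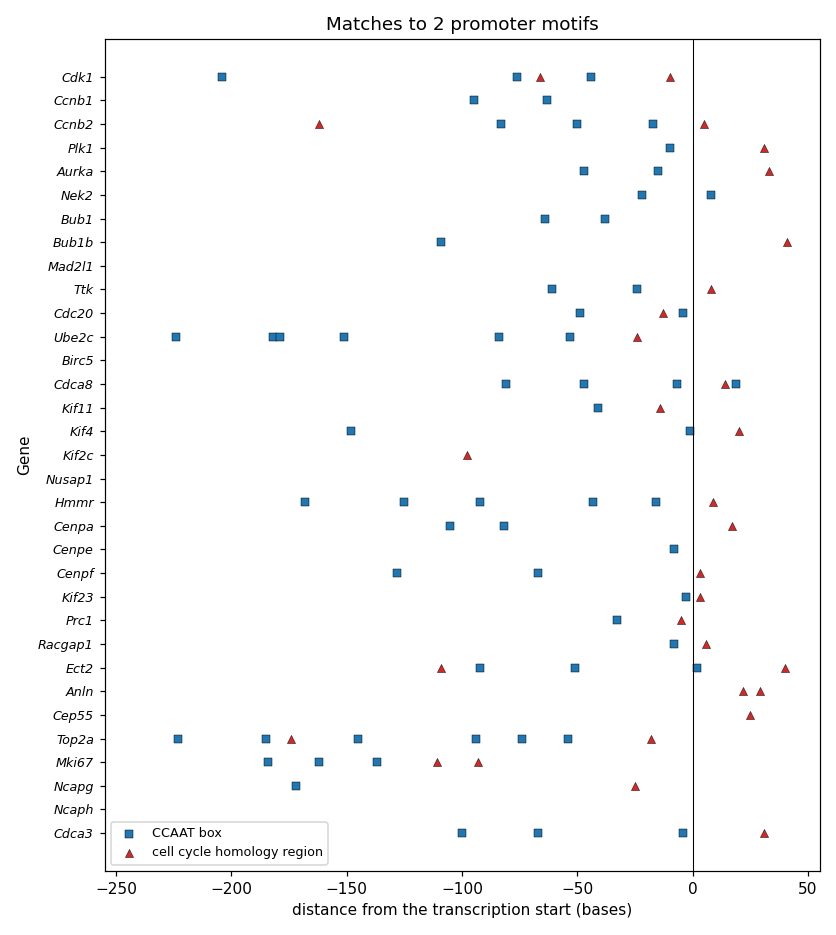
Matches to the CCAAT box (squares) and the cell cycle homology region (triangles) in the 33 promoter windows, with the distance of the nearest base of each word from the transcription start in bases on the x axis and genes on the y axis. In *Ect2* the CHR words lay at -109 and 40, in *Cdk1* at -66 and -10, in *Ccnb2* at -162 and 5 and in *Cdc20* at -13. The windows used for 4 genes (*Mad2l1*, *Birc5*, *Nusap1* and *Ncaph*) held neither word.

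Of the 38 mitosis and spindle genes, 29 read highest in tumor fibroblasts that kept *Ets2*, against 23.9% of all genes. In tumor fibroblasts without *Ets2* 24 read lowest, against 23.7%. Over the 3 arrays other than that of tumor fibroblasts with *Ets2*, the median spread of the members was 0.24. In tumor fibroblasts, 36 of 38 genes were lower without *Ets2* than with it, with a median log2 difference of -0.45 (1.37-fold lower), while 44.2% of all genes were lower and the median of all genes was 0.04. All 38 genes read log2 6 or more on every array, and of the 9818 genes that did so 52.5% were lower. None of the 38 differed over 2-fold, against 1.74% of all genes that were over 2-fold lower and 0.341% that were over 2-fold higher. At the smaller fold of 1.5, 7 of 38 (18.4%) were lower, against 5.64% of all genes and 7.39% of those at log2 6 or more, and none was higher, against 2.84%. The count of 7 depended on the normalization, and after quantile normalization of the deposited values it was 2 of 38 (5.26%), close to the 4.72% of all genes. The 7 genes over 1.5-fold lower in the deposited values were *Ect2*, *Aurkb*, *Anln*, *Ccna2*, *Mad2l1*, *Kif4* and *Cep55*. In such bulk samples, fewer dividing cells and less RNA of these genes in each cell cannot be told apart.

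**Figure D2:**
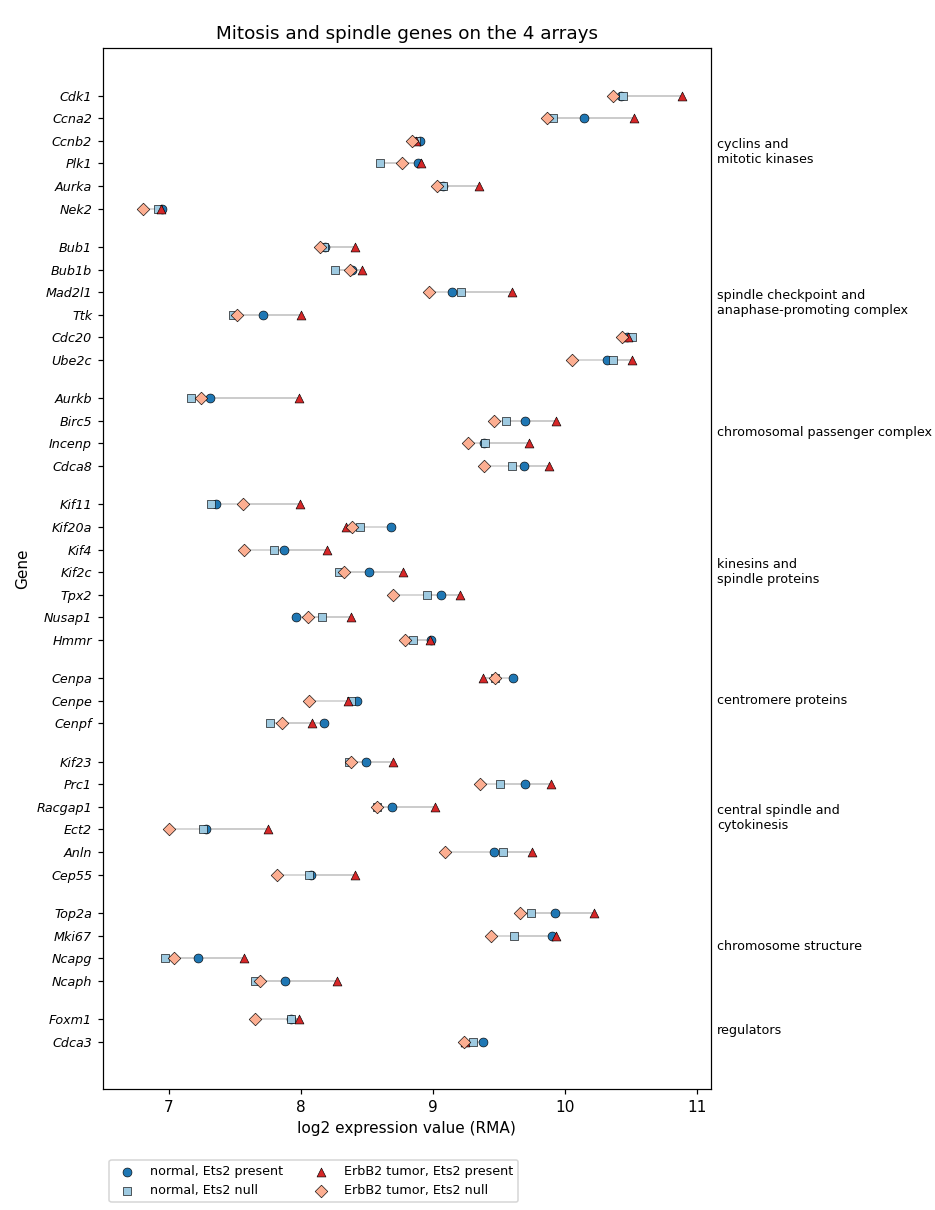
Log2 expression value (RMA) of the 38 measured genes on the 4 arrays, with genes grouped by role on the y axis, 1 point for each array and a grey line over the range of a gene. The red triangle of the tumor array with *Ets2* is the rightmost point in 29 of the 38 genes, and the range runs from 0.06 for *Ccnb2* to 0.82 for *Aurkb*.

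Among the cyclins and mitotic kinases, all 6 measured genes were lower in tumor fibroblasts without *Ets2*, with a median of -0.23. *Cdk1*, the kinase that triggers mitosis, read 10.42 and 10.44 on the normal arrays with and without *Ets2*, 10.88 on the tumor array with *Ets2* and 10.36 on the tumor *Ets2* null array. A single array, that of tumor fibroblasts with *Ets2*, stood above the rest, and the other 3 lay within 0.08 of each other. *Ccna2*, which encodes cyclin A2, a partner of Cdk1 and Cdk2, read 10.15, 9.91, 10.52 and 9.86 in the same order, 1.57-fold lower without *Ets2* in tumor fibroblasts. *Aurka*, the kinase of the spindle poles, read 9.07, 9.07, 9.35 and 9.03. *Ccnb2*, which encodes cyclin B2, read 8.90, 8.87, 8.87 and 8.84 and hardly differed between any of the arrays. *Plk1*, the polo kinase of centrosomes and kinetochores, was lower without *Ets2* by 0.29 in normal and by 0.14 in tumor fibroblasts. *Nek2*, which separates the centrosomes, ranged over 0.14 across the 4 arrays.

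The 6 genes of the spindle checkpoint and the anaphase-promoting complex were all lower in tumor fibroblasts without *Ets2*, with a median of -0.36. *Mad2l1* encodes Mad2, which holds back the anaphase-promoting complex while kinetochores are unattached. It read 9.15 and 9.21 on the normal arrays with and without *Ets2* and 9.60 and 8.97 on the tumor arrays. The tumor difference of -0.63 was thus joined by a normal difference of 0.06 in the other direction. *Ttk*, the kinase that starts checkpoint signalling, read 7.72 and 7.48 on the normal arrays with and without *Ets2*, and 7.51 on the tumor *Ets2* null array, 0.49 below the tumor array with *Ets2*. For this gene both arrays without *Ets2* lay below both arrays with it. *Bub1*, a checkpoint kinase of the kinetochore, read 8.18, 8.17, 8.41 and 8.15. *Bub1b*, its relative that binds Cdc20, differed by -0.13 in normal and -0.09 in tumor fibroblasts. By the chosen probe sets, the partners of the anaphase-promoting complex went apart. *Ube2c*, its ubiquitin-conjugating enzyme, read 10.32, 10.36, 10.50 and 10.05. *Cdc20*, its activator, read 10.47, 10.51, 10.48 and 10.43 and had its highest value on the normal *Ets2* null array by a margin of 0.03. Another *Cdc20* probe set, nearly as bright, read 10.41, 10.25, 10.38 and 10.09, with both arrays without *Ets2* below both arrays with it.

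All 4 genes of the chromosomal passenger complex, which corrects faulty attachments and guides cytokinesis, were lower in tumor fibroblasts without *Ets2*, with a median of -0.48 and a range of -0.74 to -0.46. *Aurkb*, its kinase, read 7.31 and 7.17 on the normal arrays with and without *Ets2*, 7.98 on the tumor array with *Ets2* and 7.24 on the tumor *Ets2* null array. It was 1.67-fold lower without *Ets2* in tumor fibroblasts and 1.60-fold higher in tumor than in normal fibroblasts with *Ets2*, and the tumor array with *Ets2* lay 0.67 above the highest of the others. *Birc5* (survivin) read 9.70, 9.55, 9.93 and 9.46 and *Cdca8* (borealin) read 9.69, 9.59, 9.88 and 9.39. The scaffold gene *Incenp* read 9.38, 9.39, 9.72 and 9.26. In each of the 4 genes the tumor array with *Ets2* was the highest.

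The 7 kinesin and spindle protein genes had a median tumor difference of -0.43, and 6 of them were lower without *Ets2*. *Kif4*, a motor that rides on chromosomes, read 7.87, 7.80, 8.20 and 7.57. *Kif11*, the motor that pushes the spindle poles apart, read 7.36, 7.32, 7.99 and 7.56, with both tumor arrays above both normal arrays. This order was that of the chosen probe set, and in the other 2 above log2 6 (7.24, 7.04, 7.80 and 7.11, and 6.77, 6.53, 7.33 and 6.62) the tumor *Ets2* null array lay below the normal array with *Ets2*. By the chosen probe set it was the gene with the highest value of the 38 in the comparison of tumor with normal fibroblasts without *Ets2*, at 0.24, beside 0.07 and 0.09 for the others. *Tpx2*, an activator of aurora A on the spindle, read 9.06, 8.96, 9.20 and 8.70. *Kif2c*, a motor that shortens microtubules, read 8.52, 8.29, 8.77 and 8.32 by its chosen probe set, a normal difference of -0.23. Other *Kif2c* probe sets above log2 6 gave normal differences of 0.13 and -0.01, and tumor differences of -0.22 and -0.39. *Nusap1*, which bundles spindle microtubules, was the member with the highest normal difference, at 0.19, and differed by -0.32 in tumor fibroblasts. *Hmmr*, a hyaluronan receptor that also acts at the spindle, differed by -0.14 in normal and -0.19 in tumor fibroblasts. *Kif20a*, a motor of cytokinesis, went another way, with 8.68 and 8.44 on the normal arrays and 8.34 and 8.39 on the tumor arrays. It was lowest on the tumor array with *Ets2*, the array on which most members were highest.

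The centromere genes were the role group with no member highest on the tumor array with *Ets2*, and their median tumor difference was -0.23. *Cenpa*, the histone H3 variant that marks centromeres, read 9.61, 9.47, 9.38 and 9.46 and was higher by 0.09 without *Ets2* in tumor fibroblasts. *Cenpe*, a kinetochore motor, read 8.43, 8.38, 8.36 and 8.06, with the tumor *Ets2* null array below the other 3. *Cenpf*, a large kinetochore protein, read 8.17, 7.76, 8.09 and 7.85. Its normal difference of -0.41 was the lowest of the 38 and its tumor difference was -0.23, so that both arrays without *Ets2* lay below both arrays with it.

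The 6 genes of the central spindle and cytokinesis had the lowest median of the role groups, -0.57, and 3 of the 7 genes past 1.5-fold were among them. *Ect2*, the exchange factor that activates RhoA at the cell equator, read 7.28 and 7.26 on the normal arrays with and without *Ets2*, 7.75 on the tumor array with *Ets2* and 7.00 on the tumor *Ets2* null array. Its difference of -0.75 (1.69-fold lower) was the lowest of the 38 in tumor fibroblasts, beside -0.02 in normal fibroblasts. *Anln*, a scaffold of the contractile ring, read 9.46, 9.53, 9.75 and 9.09. The tumor *Ets2* null array was low as well as the tumor array with *Ets2* high, and *Anln* was 0.44 lower in tumor than in normal fibroblasts without *Ets2*, the lowest value of the 38 in that comparison. *Cep55*, which recruits the machinery of abscission, read 8.08, 8.06, 8.41 and 7.82. *Prc1*, which crosslinks the microtubules of the central spindle, read 9.70, 9.51, 9.90 and 9.36. *Racgap1* and *Kif23* encode the subunits of centralspindlin. *Racgap1* read 8.69, 8.57, 9.01 and 8.58, and *Kif23* read 8.49, 8.36, 8.70 and 8.37.

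By their chosen probe sets, the 4 genes of chromosome structure had tumor differences between -0.58 and -0.49, and normal differences between -0.29 and -0.18. Other probe sets above log2 6 on every array gave smaller tumor differences, -0.30 for *Ncaph*, -0.35 for *Ncapg* and -0.37 for *Top2a*. That of *Top2a* gave a normal difference of -0.54. *Top2a*, the topoisomerase that untangles sister chromatids, read 9.93, 9.74, 10.22 and 9.65. *Mki67*, which encodes the Ki-67 antigen of cycling cells, read 9.90, 9.61, 9.93 and 9.44, with the arrays with *Ets2* nearly equal and both above the arrays without it. The genes of the condensin subunits, *Ncapg* with 7.22, 6.97, 7.57 and 7.03 and *Ncaph* with 7.88, 7.65, 8.27 and 7.69, also read lower on both arrays without it. For *Ncaph* this held for the chosen probe set only, since another, about as bright, read 7.67, 7.82, 8.12 and 7.82, higher by 0.16 without *Ets2* in normal fibroblasts. A fold of 1.5 is 0.585 on the log2 scale, and *Ncaph*, at -0.58, lay just outside it and *Cep55*, at -0.59, just inside. Of the regulators, *Foxm1*, a transcription factor that activates late cell cycle genes, read 7.92, 7.93, 7.99 and 7.65, with the tumor *Ets2* null array below the other 3. *Cdca3*, a factor of mitotic entry, read 9.38, 9.30, 9.24 and 9.24.

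In normal fibroblasts, the same genes differed less between the arrays with and without *Ets2*. The median was -0.10, against -0.00 over all genes, and 29 of 38 were lower without *Ets2*, against 50.5% of all genes and 55.1% of those at log2 6 or more. None differed over 1.5-fold, where 1.87% of all genes were lower and 2.31% higher, and none over 2-fold, where 0.357% were lower and 0.621% higher. A total of 27 members were lower without *Ets2* in both settings, against 23.8% of all genes. In 32 of 38 the tumor difference was the more negative of the pair, which held for 44.4% of all genes, and the median gap between the tumor and the normal difference was -0.32 against 0.04 over all genes. No error can be put on this gap with 1 array a genotype. The 6 exceptions were *Plk1*, *Bub1b*, *Kif20a*, *Cenpa*, *Cenpf* and *Cdca3*.

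**Figure D3:**
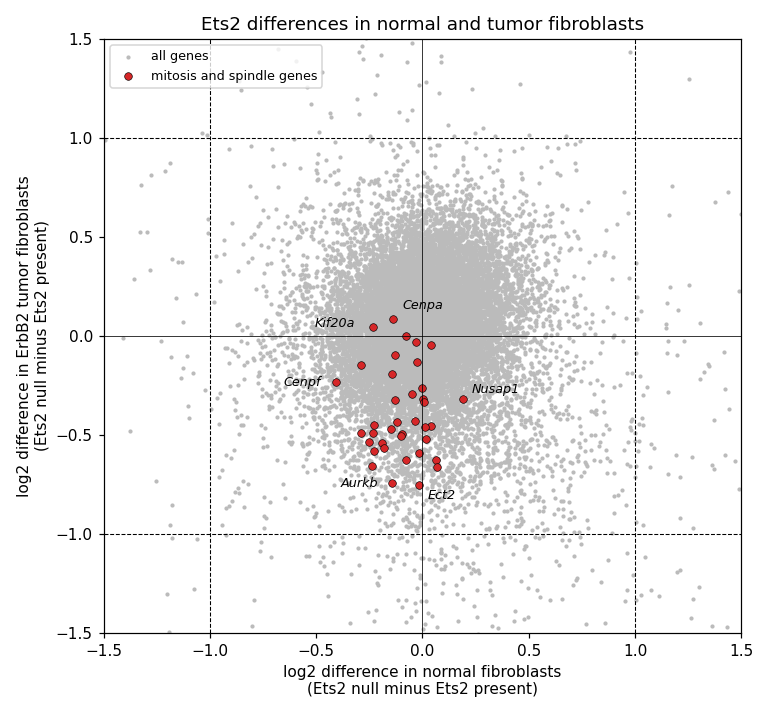
Log2 difference between arrays without and with *Ets2*, in normal fibroblasts on the x axis and in tumor fibroblasts on the y axis, with the mitosis and spindle genes in red, all genes in grey and dashed lines at 2-fold. The axes stop at 1.5 and leave out 177 genes, and the red points lie mostly below the horizontal line at 0, between -0.75 and 0.09, and between -0.41 and 0.19 from left to right.

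Set by oncogene, members were higher in tumor than in normal fibroblasts where *Ets2* was present, with a median of 0.23, 30 of 38 above 0 and a median of -0.02 over all genes, of which 53.5% were below 0 (49.1% of those at log2 6 or more). *Aurkb* (0.67) and *Kif11* (0.63) were over 1.5-fold higher, as were 2.91% of all genes, and none was over 1.5-fold lower, against 1.31%. No member was over 2-fold higher or lower, against 0.83% and 0.17% of all genes. *Ect2* (0.47), *Cdk1* (0.46) and *Mad2l1* (0.45) followed. Where *Ets2* was absent, the members' median was -0.07 and 27 of 38 were lower in tumor fibroblasts, against 45.1% of all genes and 45.2% of those at log2 6 or more. None was over 1.5-fold away in that comparison, where 3.87% of all genes were lower and 2.09% higher, or over 2-fold away, where 1.51% were lower and 0.544% higher. These comparisons use the same 4 arrays as those for *Ets2*, and the array of tumor fibroblasts with *Ets2* enters both the tumor and the oncogene comparison, so they are not independent of each other.

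Ordered by array, 29 of 38 genes were highest in tumor fibroblasts with *Ets2*, against 23.9% of all genes and 30.8% of those at log2 6 or more on every array. A further 8 were highest in normal fibroblasts with *Ets2* (21.8% of all genes), 1 in normal *Ets2* null fibroblasts (22.6%) and none in tumor *Ets2* null fibroblasts, the array on which 31.7% of all genes were highest. The lowest value fell on the tumor *Ets2* null array for 24 genes, against 23.7% of all genes, and on the normal *Ets2* null array for 11, against 24.9%. The tumor array with *Ets2* was lowest for 2 (30.9%) and the normal array with *Ets2* for 1 (20.5%). For 20 of 38 genes the tumor array with *Ets2* exceeded the highest of the others by more than the spread among these 3, which held for 7.82% of all genes. The median spread of the members over the 3 other arrays was 0.24 and the largest, that of *Mki67*, was 0.46. For the other genes it did not, and the spread between arrays of a single genotype is not known.

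Members with and without each promoter word overlapped in their differences. The 25 measured genes with a CHR word had a median tumor difference of -0.45 (range -0.75 to 0.09) and the 7 without one -0.32 (range -0.63 to -0.13). With CCAAT boxes the order was turned, with -0.32 for the 25 genes with one and -0.58 for the 7 without. The 8 genes with the ETS word had a median of -0.40 and the 24 without it -0.44. They included *Kif4* and *Cep55*, past 1.5-fold, and also *Cdc20* and *Cdca3*, which hardly differed by their chosen probe sets. The medians are given as a description, with no test.

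The array holds 90 singly named probe sets for the 38 genes, with 28 genes covered by several. In addition to those chosen, 26 probe sets of 17 genes read log2 6 or more on every array. Of these, 24 were lower in tumor fibroblasts without *Ets2*, with a median of -0.36, 7 were over 1.5-fold lower, and 21 were highest on the tumor array with *Ets2*. Among all genes at log2 6 or more on every array, 52.5% were lower, 7.39% were over 1.5-fold lower and 30.8% were highest on that array. The 26 probe sets are further readings of genes already counted. None of the 90 differed over 2-fold in any of the 4 comparisons, where 0.17% to 1.74% of all genes were lower and 0.341% to 0.83% higher. The other probe sets of *Prc1* (-0.82), *Cep55* (-0.78), *Kif11* (-0.71 and -0.69) and *Racgap1* (-0.69) were past 1.5-fold, and for *Ccna2* the pair gave -0.65 and -0.62. Probe sets disagreed for *Tpx2*, with -0.50 and -0.51 on the brighter pair and 0.32 and 0.10 on the dimmer pair, for *Ncaph*, with -0.58 and -0.30, and for *Bub1b*, whose dimmest probe set read below log2 6 and gave 0.68. The values of *Cdc20* were -0.05, -0.29 and -0.01.

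**Figure D4:**
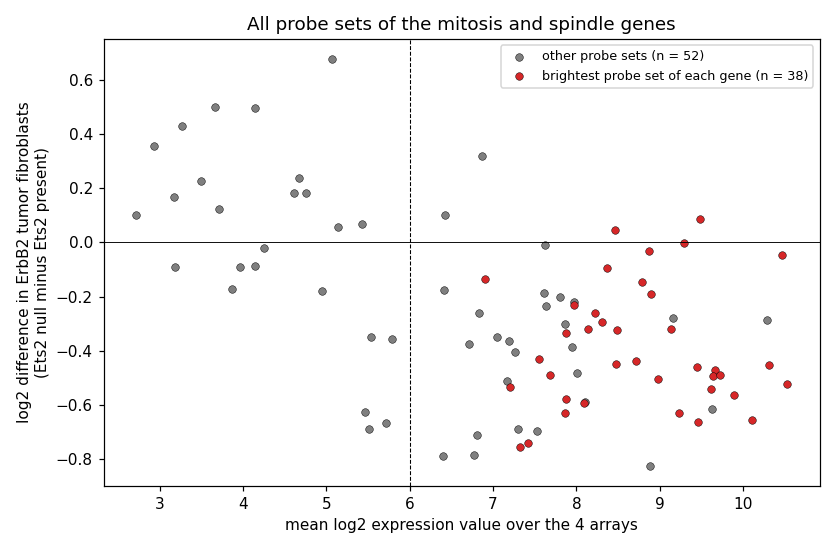
Log2 difference in *ErbB2* tumor fibroblasts (*Ets2* null minus *Ets2* present, y axis) against the mean log2 expression value over the 4 arrays (x axis) for all 90 probe sets of the mitosis and spindle genes, the chosen ones in red and the dashed line at log2 6. To the right of the line nearly all points lie below 0, while dim probe sets to its left scatter on both sides.

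Other genes of the cell cycle, in lists written for this work, were also lower in tumor fibroblasts without *Ets2*. Of 77 other mitosis genes, 68 were below 0, against 44.2% of all genes, and the median was -0.39. A total of 20 (26.0%) were over 1.5-fold lower, against 5.64% of all genes, and none was over 2-fold lower, against 1.74%. The tumor array with *Ets2* was the highest for 61, against 23.9% of all genes. *Hmgb2*, a chromatin protein, read 9.56, 9.01, 9.97 and 9.10, with both arrays without *Ets2* below both with it. *Cenpi*, a centromere protein, read 7.43, 7.75, 8.25 and 7.40, and *Ncapg2*, a subunit of condensin II, read 7.35, 7.18, 7.78 and 6.97. In normal fibroblasts the list's median was -0.06, with none over 1.5-fold, against 1.87% of all genes lower and 2.31% higher. *Depdc1a* (-0.56), *Hmgb2* (-0.55) and *Ncapd2* (-0.46), a subunit of condensin I, were at the end of the list. *Depdc1a* was dim, between 3.82 and 4.48 on the 4 arrays.

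The genes of DNA replication and S phase had a lower median than the mitosis genes. All 39 measured were below 0 in tumor fibroblasts, against 44.2% of all genes, and the median was -0.63. Of the 39, 22 (56.4%) were over 1.5-fold lower, against 5.64%, and 38 were highest on the tumor array with *Ets2*, against 23.9%. *Ccne2*, which encodes cyclin E2 of S phase entry, read 6.21, 6.13, 6.93 and 5.48. It fell by 1.44 on the log2 scale, to a value below log2 6. *Dscc1*, a subunit of a clamp loader for sister chromatid cohesion, read 4.46, 4.71, 5.54 and 4.49 and fell by 1.06, below log2 6 on every array. *Mcm3*, a subunit of the replicative helicase, read 8.82, 8.68, 9.51 and 8.61. In normal fibroblasts the median was -0.01, with *Rrm2*, a subunit of ribonucleotide reductase, at 0.66, *Dut*, which removes dUTP, at -0.53 and the repair gene *Brca1* at -0.33.

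Among 22 transcription factors that act on such genes, 18 were below 0 in tumor fibroblasts, against 44.2% of all genes, with a median of -0.19. *E2f7*, a repressor of E2F targets, read 7.18, 7.50, 8.04 and 6.80. It fell by 1.24 on the log2 scale, the single gene of the list over 2-fold lower, against 1.74% of all genes. *Lin54*, the MuvB subunit that reads the CHR word, read 6.53, 6.48, 7.43 and 6.48, and *E2f8*, a relative of *E2f7*, read 6.71, 6.81, 7.29 and 6.53. In normal fibroblasts *Rbl2* (-0.48), *E2f5* (0.47) and *E2f2* (-0.45) differed most, and *E2f2* read below log2 6 on every array. The 13 CDK inhibitors and G1 cyclins and kinases had a median of 0.01 in tumor fibroblasts, and *Ccnd1* (-0.66), *Cdkn2d* (-0.61) and *Cdk6* (-0.59) were over 1.5-fold lower, as were 5.64% of all genes. *Cdkn1c*, a CDK inhibitor, read 7.39, 8.60, 7.50 and 7.64 and rose by 1.20 without *Ets2* in normal fibroblasts, where *Cdkn1b*, another, was lower by 0.81. *Cdkn2b*, a CDK4 inhibitor, was 0.34 higher without *Ets2* in normal and 0.36 higher in tumor fibroblasts.

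**Figure D5:**
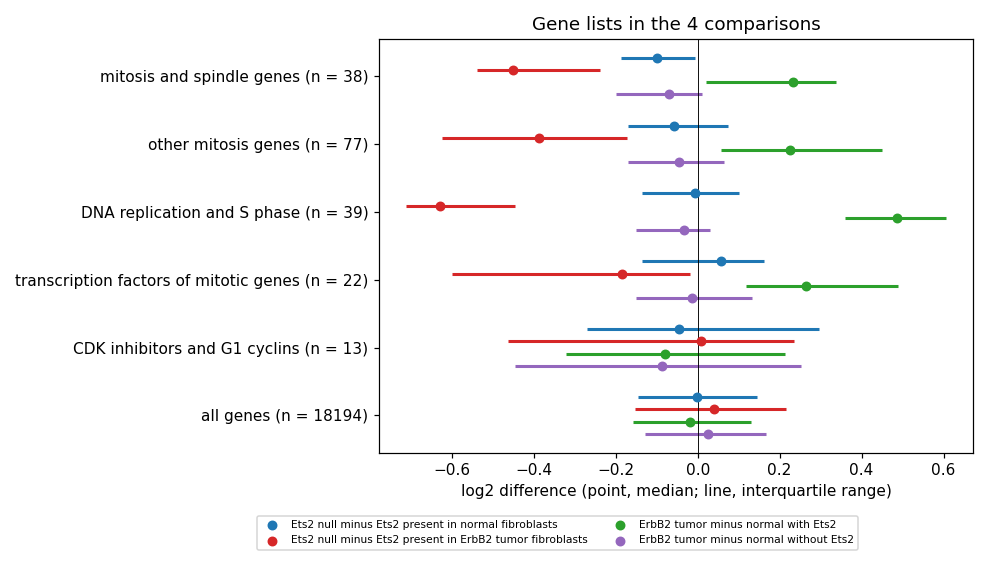
Median (point) and interquartile range (line) of the log2 difference for 5 gene lists and all genes in the 4 comparisons, with the number of measured genes beside each list. In red, tumor fibroblasts without against with *Ets2*, the medians are -0.45 for the mitosis and spindle genes, -0.39 for other mitosis genes, -0.63 for DNA replication and S phase and 0.04 for all genes.

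Markers of other cells also differed between these arrays, and the order of the arrays was not the same for every list. Of 24 macrophage and myeloid markers, 22 were highest on the tumor array with *Ets2*, with list medians of 8.07 and 7.76 on the normal arrays with and without *Ets2* and 9.12 and 7.79 on the tumor arrays, and 14 were over 2-fold lower in tumor fibroblasts without *Ets2* (23.9% and 1.74% of all genes). *Cd68*, a lysosomal protein of macrophages, read 8.67, 8.70, 10.56 and 8.21, and *Ptprc*, the common leukocyte antigen, read 5.56, 5.75, 6.91 and 5.58. The 16 luminal epithelial markers had list medians of 5.93, 7.38, 7.11 and 5.87 and the 9 basal markers 5.36, 6.40, 5.99 and 4.24. Both epithelial lists had their highest medians on the normal *Ets2* null array, followed by the tumor array with *Ets2*. Fibroblast markers had a median tumor difference of -0.16 over 20 genes, with *Lum* (lumican) at -1.03, endothelial markers -0.42 over 16, smooth muscle and pericyte markers -0.55 over 12, skeletal muscle markers -0.81 over 16, adipocyte markers 0.04 over 8, and T, NK and B cell markers 0.25 over 11. In normal fibroblasts the median difference was -0.62 for endothelial, 0.17 for smooth muscle and pericyte and -0.26 for skeletal muscle markers. It was 0.25 for adipocyte and 0.11 for T, NK and B cell markers. Of the 16 endothelial markers, 12 were highest on the normal array with *Ets2*, against 21.8% of all genes. The part of other cells in the differences of the mitosis and spindle genes was not tested.

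Technical probe sets also differed between these arrays. The bioB hybridisation control, added in a fixed amount, read 9.77, 9.68, 9.19 and 9.88, lowest on the tumor array with *Ets2*, and bioC read 10.92, 10.92, 10.50 and 11.16, while the more abundant cre control read 14.48, 14.30, 14.33 and 14.41. Probe sets for 18S ribosomal RNA read 8.74, 8.47, 8.31 and 9.01. The gap between the 3' and 5' probe sets, a sign of RNA integrity, was 0.02 to 0.10 for *Actb* and -0.22 to -0.15 for *Gapdh* over the 4 arrays. It varied more for *Pcx*, with 1.12, 1.22, 0.70 and 0.87, lowest on the tumor array with *Ets2*, and for *Tfrc*, with 2.49, 2.05, 2.24 and 2.18. The part of these in the differences was not tested.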

How the data were processed

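Mammary fibroblasts of 4 genotypes were profiled on Affymetrix mouse genome arrays, with 1 array each. The authors deposited log2 values from RMA, the method named by both the paper and the submitters' processing notes. Its software and probe definitions were not given in the sources used here. Because RMA brings the distributions of the arrays together, a shift shared by most genes would be hidden. The deposited distributions were close but not the same, with upper quartiles between 7.42 and 7.49.

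Of 45101 probe sets, 34958 had a single symbol in the platform annotation, 932 had several and 9211 were unnamed here. For each of 18194 genes the probe set with the highest mean was kept. Python 3.11.15 with numpy 2.4.6 and pandas 2.3.3 gave the differences, loess was run with statsmodels 0.14.6 (span 0.4), and figures were made with matplotlib 3.10.9. The steps were tested on simulated data, in which the planted differences were far larger than those of the members. That run does not show how differences of the members' size would be read. Precision is limited by the number of arrays, and folds of 2 (main), 1.5 and 4 replaced a test. Promoters came from RefSeq (GRCm38.p6). Named genes were all members, *Ets2*, the 3 genes of each other cell cycle list with the largest difference in each *Ets2* comparison, and marker genes. Other markers and the members at the ends of a comparison or past 1.5-fold were singled out after their values were seen. Members and lists were chosen with earlier results of these data known. Alternatives were median centring, quantile and loess normalization, a floor at log2 6, other probe set choices and other folds.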

Additional observations from a re-analysis of the deposited data

How the results depend on the processing

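The median tumor difference between fibroblasts without and with *Ets2* kept its sign under every alternative run, between -0.49 (median centring) and -0.35 (quantile normalization), except that the mean of all probe sets of a gene moved it to -0.28. The members below 0 in that comparison numbered 32 to 36. With 1.5-fold in place of 2-fold, the count of lower members in tumor fibroblasts went from 0 to 7 and the count of higher members in tumor against normal fibroblasts with *Ets2* from 0 to 2. That count of 7 was 2 with quantile normalization (5.26% of members against 4.72% of all genes), 5 with loess (13.2% against 5.99%), 9 with median centring (23.7% against 6.40%), 8 without probe sets ending in _x_at or _s_at (21.6% of the 37 measured against 5.66%), 9 with the mean of all probe sets (23.7% against 4.46%) and 12 with the probe set of the largest spread (31.6% against 7.58%). No other count at 2-fold or over left 0. For single members, 978 of 1060 values over all alternatives and comparisons had the sign of the value reported. No paired analysis was possible because each genotype was 1 array and the labels carry no shared replicate numbers, and for the same reason no array could be left out. Dim probe sets, below log2 6, limit what can be read for genes such as *Dscc1*, *Depdc1a* and *E2f2*. *Bub1b* had a dim probe set too, but its chosen one read above log2 6 on every array.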
